A study of Homo sapiens with 16 samples.

Results

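The 10 genes described here belong to the transcriptional response of cells to amino acid shortage and related stress: the regulator ATF4 and 9 genes of its response, DDIT3, TRIB3, CHAC1, SESN2, ASNS, PHGDH, PSAT1, SLC7A5 and SLC3A2. They were taken by symbol from the 35993 gene symbols of the count table, and all 10 were found and were among the 21297 genes with enough counts to be tested. Stress kinases that phosphorylate the translation factor eIF2, among them GCN2 (EIF2AK4), which senses uncharged tRNA, and PERK (EIF2AK3), which senses unfolded protein in the endoplasmic reticulum, lower general protein synthesis while ATF4 mRNA is translated more. ATF4 protein then activates genes for amino acid synthesis, uptake and tRNA charging, as well as inhibitors and effectors that end the response or lead to cell death. Because ATF4 is controlled largely at translation, the level of its mRNA and the activity of its protein are different quantities, and RNA sequencing measured the first.

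The libraries came from 4 established lines of human bladder cancer, RT112, TCCSUP, J82 and 253J, all labelled wild type. Each line was given CM-1758, an inhibitor of histone deacetylases (the enzymes that remove acetyl groups from histones), at its own IC50 for 48 h, or was a control, with 2 libraries per line and condition, 16 in all. The sample labels call the controls vehicle control and give DMSO as the vehicle, whereas the legends of the study call them untreated. 253J, J82 and RT112 were grown in DMEM and TCCSUP in EMEM, both with serum, so that 253J, J82 and RT112 shared a medium, while TCCSUP differs from them in medium as well as line. The dose was set for each line, and line and dose cannot be told apart in any comparison between lines. Replicate numbers were not taken to pair control with treated libraries. Both numbers are shared between them in J82, RT112 and TCCSUP, and 1 number in 253J. The p-values measure the spread between these libraries.

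Total counts ran from 27655401 to 32537104 per control library and from 22506431 to 31547585 per treated library. The epithelial keratins KRT8, KRT18 and KRT19 had counts in every library. Other epithelial markers varied by line. In controls, KRT5, EPCAM, GATA3 and TP63 were highest in RT112 and near 0 in 253J and J82. KRT7 was high in J82 and RT112 and low in 253J and TCCSUP. Of the uroplakins, the proteins of the mature bladder lining, UPK1B was at 1410 CPM in RT112 and near 0 in the other lines. UPK2 was at 4.3 CPM in RT112 and near 0 elsewhere, and UPK3A was near 0 in all lines. Of the mesenchymal genes, CDH2 was high in 253J, J82 and TCCSUP, VIM in 253J and J82 (3.85 CPM in TCCSUP controls), and SPARC in 253J and TCCSUP (4.81 CPM in J82 controls). The 4 mesenchymal markers summed to between 4.88 and 5870 CPM (counts scaled to a common library size) in control and between 38.7 and 2090 CPM in treated libraries, the 14 epithelial markers to 1330 to 8590 and 515 to 7890 CPM, the 5 leukocyte markers to 3.66 to 68.8 and 5.75 to 40 CPM, and the 3 endothelial markers to 0 to 4.94 and 2.02 to 6.02 CPM, and their part in the results was not tested.

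No single direction described the 10 genes after CM-1758. ATF4 and SLC3A2, the heavy chain of amino acid transporters, were lower in all 4 lines, although the ATF4 call in 253J was lost under several alternatives. DDIT3, which encodes the death-associated factor CHOP, rose in 253J, RT112 and TCCSUP and fell in J82. RT112 had more genes higher than any other line, 5 higher and 3 lower (4 higher without RT112 control replicate 1, control replicate 2 or treated replicate 2), while in 253J 1 was higher and 7 lower, in TCCSUP 1 higher and 6 lower, and in J82 1 higher and 4 lower. A gene was called at an adjusted p under 0.05 by the quasi-likelihood test of edgeR. Adjustment was over all genes tested, by the Benjamini-Hochberg method. The edgeR test is behind every adjusted p below, except where DESeq2 is named. Of the 40 pairs of gene and line, 8 were called higher, 20 lower and 12 were not called.

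For all genes tested, 28.8% were called higher and 22.4% lower in 253J, 32% and 22.1% in TCCSUP, 24% and 18.5% in J82 and 27.4% and 20.2% in RT112. The median log2 fold change of the 10 genes was -1.19 in 253J, where that of all genes was 0.10. It was -0.30 against 0.05 in J82, 0.44 against 0.12 in RT112 and -0.82 against 0.20 in TCCSUP. Bulk RNA gives each gene as a share of a library, so less RNA per cell and fewer cells that express a gene cannot be told apart. With library size alone in place of TMM scaling (the trimmed mean of M-values), the median of all genes moved up by 0.27 in 253J, 0.31 in TCCSUP, 0.15 in J82 and 0.15 in RT112, and the genes that then changed call are named where they are described.

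2 of the 10 genes, ATF4 and SLC3A2, were lower in every line, against 6.01% of all genes tested. None was higher in every line, at an adjusted p, at an unadjusted p under 0.05 or with DESeq2, against 6.69% of all genes. DDIT3, PSAT1 and SESN2 were called higher in at least 1 line and lower in at least 1 other, as were 12.9% of all genes. At a log2 fold change beyond 2 and an adjusted p under 0.01, DDIT3 was higher in 253J, where 9.43% of all genes were higher, and PHGDH and SLC3A2 were lower there, where 3.5% of genes were lower. With DESeq2, 1 gene in place of 2 was lower in 253J at these limits. CHAC1 was higher in RT112, where 11.4% of genes passed upward and 1.39% downward. None of the 10 passed these limits in J82, where 8.81% of genes were higher and 1.24% lower, or in TCCSUP, where 14.2% were higher and 3.31% lower; in those lines 0 of the 10 had a log2 fold change beyond 2 at an unadjusted p under 0.05, and DESeq2 called 0 at the strict limits.

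**Figure D1:**
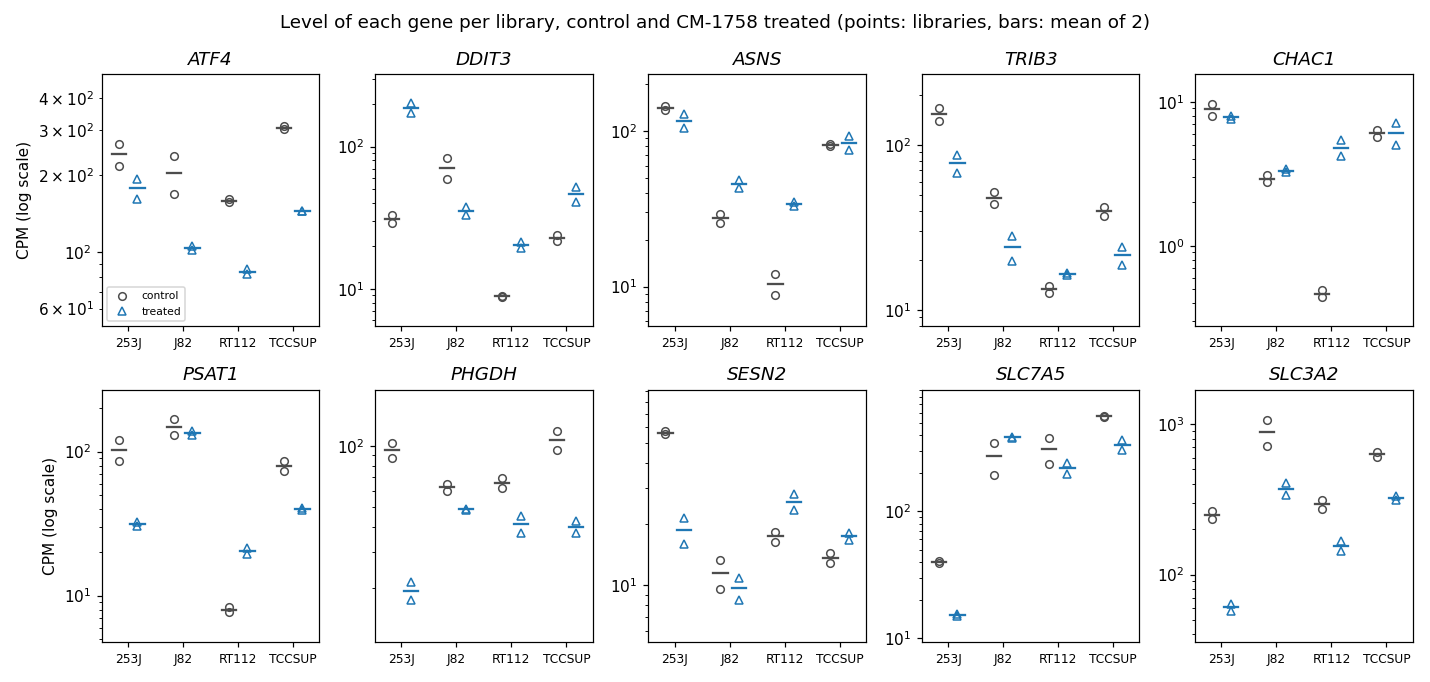
Level of each of the 10 genes in CPM, on a log axis, in every library by line. Grey circles are control and blue triangles CM-1758 libraries, and bars are the mean of 2. ATF4 and SLC3A2 sit lower after CM-1758 in all 4 lines, DDIT3 rises from about 30.8 to 187 CPM in 253J, and CHAC1 and ASNS rise in RT112 from the lowest control levels of any line.

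ATF4, on chromosome 22, encodes the transcription factor at the centre of the response. Its level in TCCSUP was 309 and 302 CPM in the control libraries and 144 and 145 CPM in the treated ones. In J82 it was 169 and 236 CPM in control and 102 and 105 CPM after treatment, and in RT112 161 and 156 CPM against 85.5 and 81.9 CPM. In these 3 lines both treated libraries lay well below both controls, although the J82 controls were spread widely. ATF4 mRNA fell by 1.08 on the log2 scale in TCCSUP (SE 0.16, adjusted p = 5.41e-05), by 0.97 in J82 (SE 0.16, adjusted p = 0.00021) and by 0.92 in RT112 (SE 0.16, adjusted p = 0.000272), that is to about 1 part in 2 of the control level.

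In 253J the 2 controls gave 264 and 217 CPM of ATF4 and the treated libraries 193 and 161 CPM. The groups did not overlap, but their nearest libraries were close. The log2 fold change was -0.44 (SE 0.16, adjusted p = 0.0301). This call was lost with library size alone (log2 fold change -0.17, adjusted p = 0.361), without control replicate 2 (-0.29, adjusted p = 0.248) and without treated replicate 3 (-0.32, adjusted p = 0.219). ATF4 alone of the 10 genes did not pass the test for a difference in effect over the 4 lines (adjusted p = 0.0958). With library size alone, and with DESeq2, all 10 genes passed, ATF4 among them. In the main fit, of the 6 pairs of lines only 253J against TCCSUP passed for ATF4. Their effects lay 0.64 apart on the log2 scale (SE 0.22, adjusted p = 0.0453).

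The control level of ATF4 mRNA was highest in TCCSUP and lowest in RT112, a ratio of 1.92, and 253J and J82 overlapped between them. Treated levels ran from 177 CPM in 253J to 83.7 CPM in RT112, a ratio of 2.11. Processed copies of ATF4 elsewhere in the genome took 0.173% to 1.12% of the reads of gene and copies together.

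DDIT3, on chromosome 12, encodes CHOP, a transcription factor that ATF4 induces and that promotes cell death under lasting stress. In 253J its level was 28.8 and 32.8 CPM in control and 171 and 202 CPM after CM-1758. The treated libraries were far above the controls, by 6.07-fold (log2 fold change 2.60, SE 0.18, adjusted p = 5.27e-08), the largest rise of this gene in the 4 lines.

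RT112 had the lowest control levels of DDIT3, 8.96 and 8.71 CPM, and 19.4 and 21.2 CPM after treatment. TCCSUP went from 21.5 and 23.7 CPM to 40.6 and 52.3 CPM. The groups were apart in both lines, 2.30-fold higher in RT112 (adjusted p = 9.14e-05) and 2.05-fold higher in TCCSUP (adjusted p = 0.00017), and the difference between these effects was 0.16 (SE 0.25, adjusted p = 0.727).

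J82 held most DDIT3 mRNA before treatment, 82.6 and 58.8 CPM, and 37.7 and 33.2 CPM after it. Here both treated libraries were below both controls, and DDIT3 was 2-fold lower (SE 0.17 on the log2 scale, adjusted p = 0.000309). The effects in 253J and J82 lay 3.60 apart on the log2 scale (SE 0.25, adjusted p = 1.56e-07). ATF4 mRNA was lower in all 4 lines, although its call in 253J was lost under several alternatives. The levels of ATF4 and DDIT3 mRNA thus moved in opposite directions in RT112 and TCCSUP and, with that limit, in 253J. In J82 they moved in the same direction.

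TRIB3, on chromosome 20, encodes a pseudokinase that CHOP and ATF4 induce and that in turn restrains ATF4. Its level in 253J was 168 and 139 CPM in control and 87.1 and 67.6 CPM after CM-1758. In J82 it was 52.1 and 43.6 CPM against 28.2 and 19.7 CPM, and in TCCSUP 37.3 and 42.2 CPM against 18.6 and 24.2 CPM. Control and treated libraries did not overlap in any of these lines. TRIB3 mRNA fell by 0.99 on the log2 scale in 253J (SE 0.19, adjusted p = 0.000448), by 1.00 in J82 (SE 0.19, adjusted p = 0.000707) and by 0.89 in TCCSUP (SE 0.19, adjusted p = 0.00127). In 253J and TCCSUP, TRIB3 was thus lower while DDIT3 was higher.

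RT112 gave 12.7 and 14 CPM of TRIB3 in control and 16.7 and 16.3 CPM after treatment, with a log2 fold change of 0.31 (SE 0.20, adjusted p = 0.217). The effect in RT112 was above that in each other line, by 1.30 against 253J (adjusted p = 0.0022), 1.31 against J82 (adjusted p = 0.00324) and 1.20 against TCCSUP (adjusted p = 0.00436). Between 253J and J82 the effects differed by 0.01 (SE 0.26, adjusted p = 1).

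CHAC1, on chromosome 15, encodes an enzyme that breaks down glutathione and is induced by ATF4. ASNS, on chromosome 7, encodes asparagine synthetase, which makes asparagine from aspartate and glutamine and is the best known target of the amino acid response. Their starts are shown because both hold the letters TGATGNAA (N is any base), the core of the element through which ATF4 and its C/EBP partners bind the ASNS promoter, and because both genes rose in RT112. The windows are from RefSeq on GRCh38.p14, whereas the submitters' processing notes name GRCh37 for the counts. They read 5′ to 3′ along the gene, with 30 bases on each side of the match, which is in capitals. ASNS lies on the minus strand at chr7:97872439-97872506, and the match begins 68 bases before the start. CHAC1 lies on the plus strand at chr15:40953232-40953299, and its match begins 209 bases before the start, read on the opposite strand.
ASNS: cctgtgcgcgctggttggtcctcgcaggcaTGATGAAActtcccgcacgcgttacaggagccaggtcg
CHAC1: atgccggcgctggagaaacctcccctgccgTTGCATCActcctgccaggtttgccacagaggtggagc
The search covered both strands of 17 windows, from 250 bases before to 50 bases after each annotated start of the 10 genes. The only other match was in 1 of the 3 windows of SLC3A2, on the opposite strand, 38 bases after the start. Over all RefSeq promoters of this length, 3.62% of 35116 windows and 4.46% of 27305 genes held the letters. A match is a description of the letters, and no binding was measured.

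CHAC1 in RT112 was at 0.49 and 0.441 CPM in control, from 15 and 13 counts, and at 4.19 and 5.42 CPM after CM-1758, from 107 and 142 counts. Both treated libraries were far above both controls, 10.2-fold (log2 fold change 3.35, SE 0.30, adjusted p = 7.41e-07), the largest fold of the 40 pairs, from low control counts. The treated level of RT112 came within the range of the other lines.

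No change in CHAC1 passed the test in the other 3 lines. J82 had 2.77 and 3.09 CPM in control and 3.26 and 3.39 CPM after treatment (log2 fold change 0.18, SE 0.25, adjusted p = 0.621). 253J had 9.74 and 7.97 CPM against 7.57 and 8.03 CPM (-0.18, SE 0.24, adjusted p = 0.561), and TCCSUP 6.41 and 5.74 CPM against 7.19 and 5 CPM (adjusted p = 1). In 253J and TCCSUP the treated libraries overlapped the controls. The effect in RT112 exceeded that in 253J by 3.54 (SE 0.39, adjusted p = 9.17e-06), that in J82 by 3.17 (SE 0.40, adjusted p = 4.8e-05) and that in TCCSUP by 3.35 (SE 0.39, adjusted p = 1.59e-05) on the log2 scale.

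ASNS in RT112 went from 8.89 and 12 CPM to 35.1 and 33.2 CPM. In J82 it went from 25.6 and 29.3 CPM to 43.2 and 48.1 CPM. Treated libraries were above controls in both lines, 3.27-fold in RT112 (log2 fold change 1.71, SE 0.17, adjusted p = 1.64e-06) and 1.66-fold in J82 (0.73, SE 0.16, adjusted p = 0.00187), and the effects differed by 0.98 (SE 0.23, adjusted p = 0.00678).

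The lines with most ASNS before treatment did not pass the test. 253J had 145 and 137 CPM in control and 105 and 128 CPM after CM-1758 (log2 fold change -0.28, SE 0.16, adjusted p = 0.157). TCCSUP had 80.3 and 82.4 CPM against 92.9 and 75.7 CPM (0.05, SE 0.16, adjusted p = 0.814), with overlapping groups. A readthrough transcript that joins ASNS to its neighbour, CZ1P-ASNS, is counted apart and took 1.67% of the reads of both together in RT112 control replicate 2 and 16.3% in 253J control replicate 2. With its counts added, a choice made after the data were seen, the log2 fold changes were -0.30 in 253J, 0.01 in TCCSUP, 0.84 in J82 and 1.83 in RT112.

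PHGDH and PSAT1 encode the first and second enzymes of serine synthesis from glucose. PHGDH, on chromosome 1, was at 103 and 87.5 CPM in the 253J controls and at 21.4 and 17.4 CPM after CM-1758. In TCCSUP it was at 95.2 and 118 CPM against 42.6 and 37.3 CPM, and in RT112 at 69.7 and 61.9 CPM against 45 and 37.1 CPM. All treated libraries of these lines were below their controls. PHGDH mRNA was 4.91-fold lower in 253J (log2 fold change -2.30, SE 0.17, adjusted p = 7.18e-08), and fell by 1.42 on the log2 scale in TCCSUP (SE 0.16, adjusted p = 3.95e-06) and by 0.68 in RT112 (SE 0.16, adjusted p = 0.00248).

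J82 gave 59.9 and 64.9 CPM of PHGDH in control and 49.1 and 48.3 CPM after treatment. The groups were apart but close, and the change did not pass the test (log2 fold change -0.36, SE 0.16, adjusted p = 0.0795). Before treatment PHGDH differed least between the lines of the 10 genes, by 1.71-fold from highest to lowest, with TCCSUP and 253J overlapping, as did RT112 and J82.

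PSAT1, on chromosome 9, was at 120 and 86.6 CPM in the 253J controls and at 32.5 and 30.2 CPM after treatment. In TCCSUP it was at 72.9 and 86.2 CPM against 40.6 and 39 CPM. Both lines had lower treated libraries, by 1.72 on the log2 scale in 253J (log2 fold change -1.72, SE 0.17, adjusted p = 1.14e-06) and 2-fold in TCCSUP (SE 0.17 on the log2 scale, adjusted p = 0.00016).

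RT112 had 7.65 and 8.3 CPM of PSAT1 in control and 19.3 and 21.4 CPM after treatment, which was 2.55-fold higher (log2 fold change 1.35, SE 0.18, adjusted p = 2.63e-05). In J82 the controls gave 130 and 168 CPM and the treated libraries 131 and 139 CPM, which lay between them (log2 fold change -0.14, SE 0.16, adjusted p = 0.545). The 2 serine enzymes thus moved together in 253J and TCCSUP and in opposite directions in RT112, where PHGDH fell and PSAT1 rose. The effects of CM-1758 on PSAT1 in RT112 and 253J lay 3.07 apart (SE 0.25, adjusted p = 5.34e-07). Pseudogenes of PSAT1 took at most 1.4% of the reads of gene and copies.

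SESN2, on chromosome 1, encodes a leucine-binding protein that restrains the growth kinase complex mTORC1. Its level in 253J was 55.2 and 57.3 CPM in control and 21.4 and 15.9 CPM after CM-1758, while in RT112 it was 16.4 and 18.4 CPM against 23.4 and 28.3 CPM. The gene was lower in 253J (log2 fold change -1.59, SE 0.19, adjusted p = 6.43e-06) and higher in RT112 (0.57, SE 0.19, adjusted p = 0.0215), with groups apart in both. The rise in RT112 did not pass the test without control replicate 1 (0.49, adjusted p = 0.142), without control replicate 2 (0.66, adjusted p = 0.0516) or without treated replicate 2 (0.42, adjusted p = 0.171).

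J82 had 13.3 and 9.63 CPM of SESN2 in control and 8.45 and 10.9 CPM after treatment, which overlapped (log2 fold change -0.24, SE 0.20, adjusted p = 0.353). TCCSUP had 12.9 and 14.4 CPM against 18.2 and 16.8 CPM (0.36, SE 0.19, adjusted p = 0.133). In TCCSUP the treated libraries were above the controls, and the difference passed with library size alone (0.67, adjusted p = 0.00967) and among genes with at least 10 counts in every library (0.51, adjusted p = 0.034).

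SLC3A2 and SLC7A5 encode the heavy and light chain of LAT1, the exchanger that brings leucine and other large neutral amino acids into the cell. SLC3A2, on chromosome 11, also pairs with other light chains. Its level in J82 was 1060 and 713 CPM in control and 407 and 337 CPM after CM-1758, and in TCCSUP 657 and 608 CPM against 332 and 311 CPM. In RT112 it was 272 and 314 CPM against 166 and 144 CPM, and in 253J 234 and 266 CPM against 57.2 and 64.2 CPM. In every line both treated libraries were below both controls. The decrease was 4.12-fold in 253J (log2 fold change -2.04, SE 0.19, adjusted p = 5.73e-07), and the log2 fold changes were -1.26 in J82 (SE 0.18, adjusted p = 6.84e-05), -0.98 in TCCSUP (SE 0.18, adjusted p = 0.000383) and -0.92 in RT112 (SE 0.18, adjusted p = 0.000805). The effect in 253J exceeded the others, by 0.79 against J82 (adjusted p = 0.0304), 1.13 against RT112 (adjusted p = 0.00383) and 1.07 against TCCSUP (adjusted p = 0.00577), and no pair among the other 3 lines passed.

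SLC7A5, on chromosome 16, was at 40.5 and 38.9 CPM in the 253J controls and at 15 and 15.4 CPM after treatment. TCCSUP had 556 and 568 CPM against 362 and 305 CPM. The treated libraries were lower in both lines, with log2 fold changes of -1.39 in 253J (SE 0.25, adjusted p = 0.000334) and -0.75 in TCCSUP (SE 0.24, adjusted p = 0.0165). In TCCSUP the call was lost with library size alone (-0.44, adjusted p = 0.151) and without control replicate 1 (-0.77, adjusted p = 0.0521), control replicate 2 (-0.74, adjusted p = 0.0618) or treated replicate 2 (-0.63, adjusted p = 0.116).

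In J82 the SLC7A5 controls were 348 and 194 CPM, 1.8-fold apart and the widest pair of the 10 genes, and the treated libraries 381 and 386 CPM. RT112 had 235 and 381 CPM in control and 240 and 196 CPM after treatment, which overlapped. Neither line passed the test, with log2 fold changes of 0.50 in J82 (SE 0.24, adjusted p = 0.108) and -0.50 in RT112 (SE 0.24, adjusted p = 0.103). The J82 change passed without control replicate 1 (0.99, adjusted p = 0.00395), with DESeq2 (0.59, adjusted p = 0.0464) and among genes with at least 10 counts in every library (0.61, adjusted p = 0.042). The RT112 change passed without RT112 control replicate 1 (-0.81, adjusted p = 0.0242), without J82 control replicate 1 (-0.50, adjusted p = 0.0349) and without J82 control replicate 3 (-0.50, adjusted p = 0.0351).

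The SLC7A5 pseudogenes SLC7A5P1 and SLC7A5P2 took between 4.31% of the reads of gene and copies together in TCCSUP control replicate 2 and 53.2% in 253J treated replicate 3, and the counting cannot show from which copy such reads came. With these counts added, the log2 fold change in 253J was -0.87 (adjusted p = 0.0062) in place of -1.39, in TCCSUP -0.68 (adjusted p = 0.0204), in RT112 -0.44 (adjusted p = 0.129) and in J82 0.40 (adjusted p = 0.182). The 2 chains of the exchanger thus fell together in 253J and TCCSUP, whereas in J82 SLC3A2 fell and SLC7A5 had a log2 fold change of 0.50 that did not pass.

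**Figure D2:**
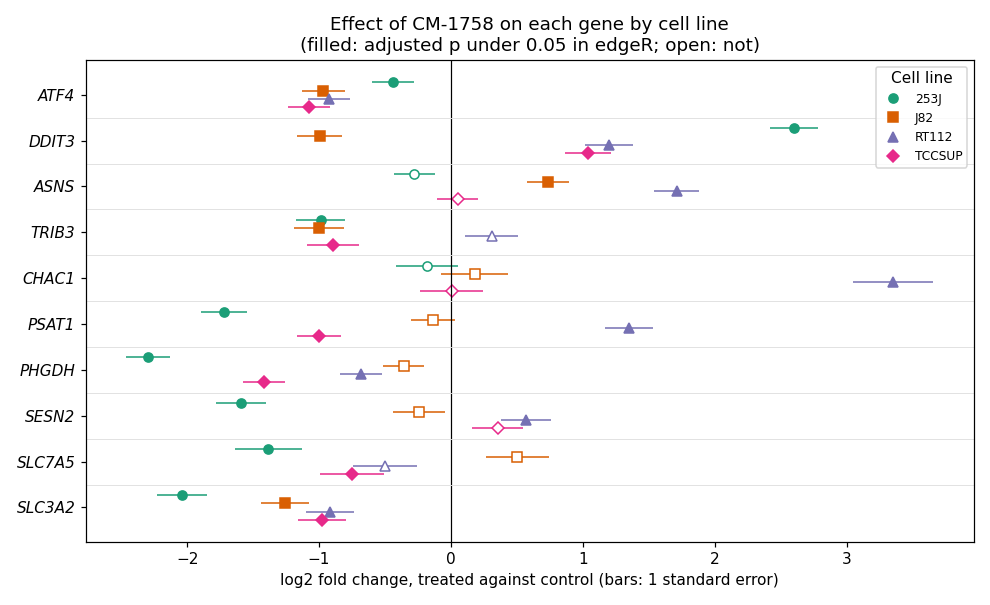
Log2 fold change of each gene, CM-1758 against control, by line, with 1 SE as the error bar. Filled points passed an adjusted p of 0.05. ATF4 and SLC3A2 are filled below 0 in all 4 lines, and DDIT3, PSAT1 and SESN2 have filled points on both sides of 0.

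The effect of CM-1758 differed between lines for 9 of the 10 genes, by a test of the 3 differences between the 4 effects that 51.9% of all genes passed. Control levels differed between lines for all 10, as they did for 78.8% of all genes. RT112 had the lowest control level of 6 genes, ATF4, DDIT3, TRIB3, CHAC1, ASNS and PSAT1. Of these, DDIT3, CHAC1, ASNS and PSAT1 rose there, ATF4 fell and TRIB3 was not called. SESN2 also rose in RT112, where its control level lay above those of TCCSUP and J82. How often RT112 was lowest was not counted over all genes. A control level and its change rest on the same control libraries. The ratio of the highest to the lowest line was smaller after treatment for 5 genes. It went from 19 to 2.35 for CHAC1, from 13.5 to 3.41 for ASNS, from 18.6 to 6.65 for PSAT1, from 11.5 to 4.68 for TRIB3 and from 4.91 to 2.67 for SESN2. It was larger for the other 5, going from 14.2 to 25.3 for SLC7A5, from 3.55 to 6.13 for SLC3A2, from 8 to 9.2 for DDIT3, from 1.71 to 2.51 for PHGDH and from 1.92 to 2.11 for ATF4. These ratios are a description, were not tested and were not set beside those of all genes. Of 30 neighbouring pairs of lines in the order of levels, 5 overlapped in control and 4 after treatment. Such overlaps were not counted over all genes, so these numbers mark no trait of the 10.

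In control the order from highest to lowest was 253J, TCCSUP, J82 and RT112 for ASNS and CHAC1, and J82, 253J, TCCSUP and RT112 for DDIT3 and PSAT1. TRIB3 was highest in 253J, followed by J82, TCCSUP and RT112. SESN2 was highest in 253J and then RT112, with TCCSUP and J82 overlapping. The LAT1 chains had another order. SLC7A5 was highest in TCCSUP, overlapped between RT112 and J82 and was lowest in 253J, and SLC3A2 was highest in J82, then TCCSUP, RT112 and 253J.

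Over the 16 libraries, which share lines and treatments, the log2 levels of ASNS and CHAC1 had the highest correlation of any pair of the 10 genes (Pearson's r = 0.928), followed by SLC7A5 with SLC3A2 (r = 0.762) and PHGDH with SLC3A2 (r = 0.722). The lowest were TRIB3 with SLC7A5 (r = -0.692) and DDIT3 with PHGDH (r = -0.632). ATF4 was in none of these pairs. Among all genes, the levels most like those of ATF4 over the 16 libraries were SMARCA1 (r = 0.971), ERCC8 (r = 0.947), RBM3 (r = 0.944), ZNF140 (r = 0.937) and MCPH1 (r = 0.936). For ASNS they were LSP1P5 (r = 0.973), INTS6L (r = 0.969), BICD1 (r = 0.969), STOM (r = 0.965) and AGPAT4 (r = 0.963). These values are a description over libraries that differ mostly by line.

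The wider pathway was described with lists of other genes, leaving out the 10. Of 75 such genes 73 were tested. They include 8 tRNA synthetases not usually listed as ATF4 targets, of which 6 were lower in RT112. In 253J 17 were called higher and 41 lower (56.2% lower, median log2 fold change -0.64), in TCCSUP 13 and 47 (64.4%, -0.64), in J82 13 and 32 (43.8%, -0.23) and in RT112 19 and 23 (31.5%, 0.04). RT112 was again the line with the smallest share of lower genes. The shares over the whole table are those given above, between 18.5% and 22.4% for lower genes and between 24% and 32% for higher genes. The same shares apply to the counts of each list below, which were not tested against them.

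**Figure D3:**
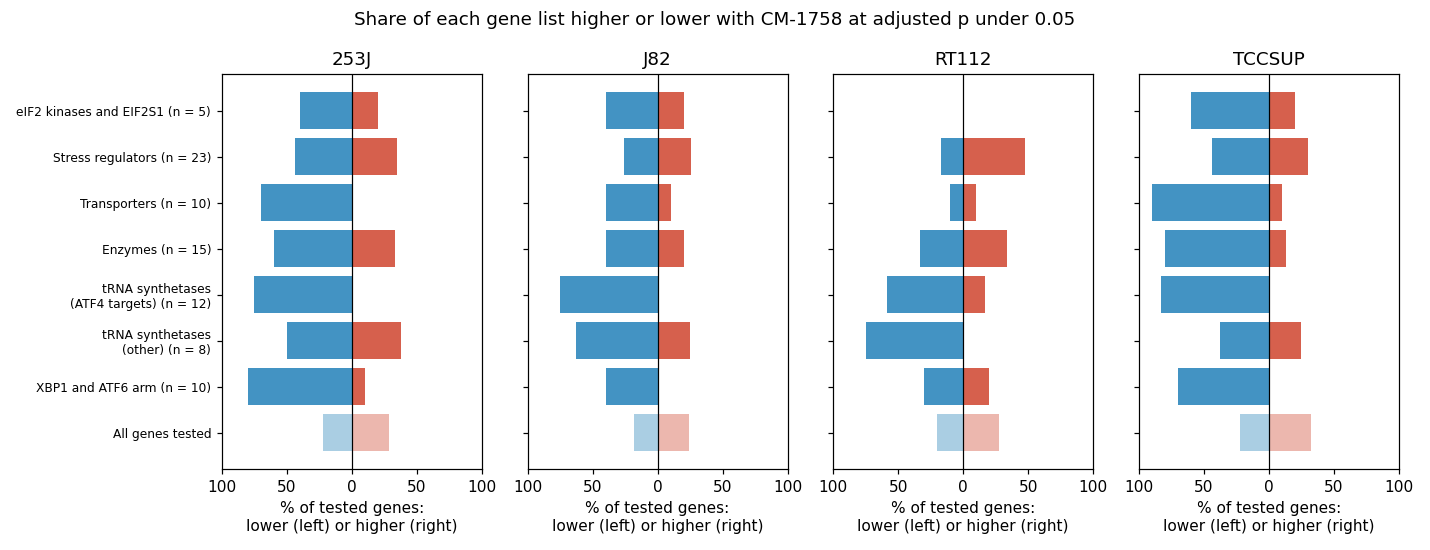
Percentage of tested genes called higher (red, to the right) and lower (blue, to the left) in each gene list and among all genes, by line. The tRNA synthetases that ATF4 targets are mostly lower in every line, and amino acid transporters are mostly lower in 253J and TCCSUP but not in RT112.

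The aminoacyl-tRNA synthetases, which load amino acids onto tRNA, were mostly lower. Of 12 that are ATF4 targets, 9 were lower in 253J, 10 in TCCSUP, 9 in J82 and 7 in RT112, the 7 of RT112 being lower in all 4 lines. In RT112 2 were higher, and in the other lines 0 were higher by edgeR, at an unadjusted p under 0.05 or by DESeq2. YARS1, for tyrosine, had log2 fold changes of -1.37 in 253J, -1.01 in TCCSUP, -0.93 in J82 and -0.60 in RT112. XPOT, which exports tRNA from the nucleus and is in the regulator list, was at -0.77 in 253J, -0.79 in TCCSUP, -0.94 in J82 and -0.42 in RT112 and was called in each. Of 8 synthetases outside that list, 4 were lower in 253J, 3 in TCCSUP, 5 in J82 and 6 in RT112. Higher were 3 of them in 253J, 2 in TCCSUP and 2 in J82, and in RT112 0 by edgeR but 1 at an unadjusted p under 0.05 and 1 by DESeq2. QARS1, for glutamine, was lower in all 4 lines, by 1.24 in 253J, 0.77 in J82 and 1.11 in RT112 (log2 fold changes -1.24, -0.77 and -1.11) and most in TCCSUP. The median log2 fold changes of the targets and of the other synthetases were -0.63 and -0.38 in 253J, -0.67 and -0.20 in TCCSUP, -0.64 and -0.60 in J82 and -0.58 and -0.68 in RT112, and the difference between the lists was not tested.

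Of 10 other amino acid transporters, 7 were lower in 253J and 9 in TCCSUP, against 4 in J82 and 1 in RT112, and 1 was higher in each line but 253J, where 0 were higher by edgeR, 0 at an unadjusted p under 0.05 and 1 by DESeq2. SLC6A9, a glycine transporter, had log2 fold changes of -3.93 in 253J, -1.38 in J82 and -4.40 in TCCSUP, and -0.15 in RT112 (adjusted p = 0.871). RT112 had few counts of SLC6A9 already in control, 12 and 19, and 16 and 8 after treatment. SLC7A8, a light chain that pairs with SLC3A2, was at least 23.9-fold higher in J82, from 2 and 2 counts in control to 91 and 61 counts after treatment, against a floor of 3 counts per library. It was also higher in TCCSUP (log2 fold change 2.22, adjusted p = 0.00318).

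Of 15 enzymes of amino acid and one-carbon metabolism, 5 were higher and 9 lower in 253J, 2 and 12 in TCCSUP, 3 and 6 in J82 and 5 and 5 in RT112. PSPH, the last enzyme of serine synthesis, was lower in all 4 lines, at -1.04 in 253J, -0.74 in TCCSUP, -1.01 in J82 and -0.90 in RT112 on the log2 scale. SHMT2, which turns serine into glycine in mitochondria, was lower too, with log2 fold changes of -1.82 in 253J, -1.22 in TCCSUP, -0.79 in J82 and -1.14 in RT112. CTH, which makes cysteine from cystathionine, was higher in all 4, with log2 fold changes of 1.71 in 253J, 1.92 in TCCSUP, 0.49 in J82 and 3.92 in RT112. As for CHAC1 and ASNS, the largest rise of CTH was in RT112.

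Of 23 other regulators and stress genes, 8 were higher and 10 lower in 253J, 7 and 10 in TCCSUP, 6 and 6 in J82 and 11 and 4 in RT112. Of all genes, 28.8% were higher and 22.4% lower in 253J, and 32% and 22.1% in TCCSUP. In J82 these shares were 24% and 18.5%, and in RT112 27.4% and 20.2%. The counts of higher genes in J82 and TCCSUP and of lower genes in RT112 lie near these shares. ATF3, a stress-induced transcription factor downstream of ATF4, was higher in all 4 lines, with log2 fold changes of 1.13 in 253J, 1.14 in TCCSUP, 0.88 in J82 and 3.58 in RT112. SESN3, a relative of SESN2 under the control of FOXO factors, was also higher in all 4 lines, at 1.66 in 253J, 4.74 in J82 and 1.94 in RT112. In TCCSUP it had 4 and 0 counts in control and 789 and 698 counts after treatment. SESN3 thus rose in 253J, where SESN2 fell.

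Of the 4 eIF2 kinases and eIF2 alpha itself (EIF2S1), 1 was higher and 2 lower in 253J, 1 and 3 in TCCSUP and 1 and 2 in J82. The gene that was higher was EIF2S1 in 253J (log2 fold change 1.04) and TCCSUP (0.59). In J82 it was GCN2 (EIF2AK4, 0.47, adjusted p = 0.0063), which was not called in the other lines. In RT112 0 were higher or lower by edgeR or by DESeq2, and 2 were lower at an unadjusted p under 0.05. PKR (EIF2AK2), which senses double-stranded RNA, had log2 fold changes of -0.98 in 253J, -1.93 in J82 and -1.85 in TCCSUP, and -0.43 in RT112 (adjusted p = 0.0903). PERK (EIF2AK3) was lower in 253J at -1.17 and in TCCSUP at -0.81. The activity of these kinases was not measured.

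The other arms of the unfolded protein response, run by XBP1 and ATF6, were listed apart. Of 10 genes, 8 were lower and 1 higher in 253J, and 3 lower and 2 higher in RT112. In TCCSUP 7 and in J82 4 were lower, and 0 were higher by edgeR in either line, with 1 in TCCSUP and 0 in J82 at an unadjusted p under 0.05 and 1 in each by DESeq2. XBP1, the transcription factor itself, was lower in all 4 lines, with log2 fold changes of -2.59 in 253J, -2.48 in TCCSUP, -1.58 in J82 and -1.39 in RT112. HSP90B1, a chaperone of the endoplasmic reticulum, was at -1.83, -0.75 and -2.15 in 253J, J82 and TCCSUP in turn, and at -0.25 in RT112 (adjusted p = 0.349). DDIT3 was higher in 253J, RT112 and TCCSUP in the same libraries in which XBP1 was lower. The 2 genes of this list that were higher in RT112 were HSPA5 and EDEM1. HSPA5, another chaperone, had a log2 fold change of 1.42 (adjusted p = 0.00116) and EDEM1 one of 0.63 (adjusted p = 0.0422). HSPA5 was lower in 253J (-0.81), TCCSUP (-1.10) and J82 (-0.75, adjusted p = 0.0497). In J82 its control and treated libraries overlapped.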

How the data were processed

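RNA was sequenced from 4 bladder cancer cell lines, CM-1758 for 48 h or control, with 2 libraries per group. The authors describe stranded total RNA libraries with ribosomal RNA depletion and differential analysis with DESeq2, and deposited raw counts per gene symbol. The submitters' processing notes name HISAT2, StringTie and GRCh37, and their versions and the strand setting of the counting are not given in the sources used here. Columns were matched to samples by title, and 0 columns were left over.

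Low-count genes were removed by filterByExpr with the 8 groups. After TMM scaling, edgeR 4.0.16 (R 4.3.3) fitted its quasi-likelihood model to all libraries (8 residual degrees of freedom, common biological coefficient of variation 0.153), with contrasts in each line and their differences, and Benjamini-Hochberg adjustment within each contrast over all 21297 genes. CPM used TMM-scaled library sizes, and correlations used log2 CPM with a prior count of 2. The fit was checked on simulated counts. The 10 genes, the lists and the tests were chosen with earlier results of these data known. In each list, genes called alike in all 4 lines were named, otherwise the 2 with the largest mean change. The text gives examples of these, and names a few other genes chosen after their values were seen. Alternatives were RLE scaling, library size alone, DESeq2 1.42.0, no filter or at least 10 counts in every library, a replicate block, each line alone, stricter limits and leaving out each library. Adding copies and readthrough genes was chosen after the data were seen. Total counts of 22506431 to 32537104 per library set the precision, and a count of 3 or fewer was taken as the floor.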

Additional observations from a re-analysis of the deposited data

Results flagged for a closer look

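For 9 of the 10 genes the effect of CM-1758 differed between the 4 lines by an interaction test (edgeR's quasi-likelihood F test of 3 contrasts, Benjamini-Hochberg adjusted), as for 51.9% of all genes. Adjusted p was 3.62e-07 for DDIT3, which rose in 253J, RT112 and TCCSUP and fell in J82. It was 1.04e-06 for PSAT1 and 4.25e-05 for SESN2, both lower in 253J and higher in RT112. CHAC1 (adjusted p = 1.23e-05), ASNS (adjusted p = 2.69e-05) and TRIB3 (adjusted p = 0.00238) had their highest log2 fold change in RT112. PHGDH (adjusted p = 2.55e-05) and SLC3A2 (adjusted p = 0.0061) had their lowest in 253J. For SLC7A5 adjusted p was 0.00265, with log2 fold changes from -1.39 in 253J to 0.50 in J82. Line and dose cannot be told apart in these differences, and the medium differed only for TCCSUP.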

How the results depend on the processing

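With 2 libraries per group, leaving out 1 leaves an arm with 1 library, which is then assumed to vary like the other groups. At a log2 fold change beyond 2 and an adjusted p under 0.01, the counts of the 10 genes were 2 lower in 253J, 0 higher and 0 lower in TCCSUP, 0 higher and 0 lower in J82 and 1 higher and 0 lower in RT112. In J82, 2 genes were higher with DESeq2 and with at least 10 counts in every library, and 1 to 2 when single libraries were left out. In TCCSUP, 2 were higher with library size alone and with at least 10 counts in every library. The second gene was SLC7A5 in J82 and SESN2 in TCCSUP. Genes whose effect differed between lines numbered 9 to 10 under the alternatives, and control levels differed for 10 in each.

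Some uncalled log2 fold changes crossed 0. CHAC1 in 253J was 0.0907 with library size alone, and in TCCSUP it was -0.0022 with no filter, -0.007 with the line alone and -0.29 to 0.24 when single libraries were left out. PSAT1 in J82 was 0.0115 with library size alone and -0.31 to 0.0629 with single libraries left out. ASNS in TCCSUP ran from -0.11 to 0.19 and SESN2 in J82 from -0.45 to 0.0107 in the same way. In none of these was the gene called.

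The labels share replicate numbers between control and treated libraries (1 number in 253J and 2 in each other line). Their deviations correlated at 0.0846 in 253J, 0.0607 in TCCSUP, 0.409 in J82 and 0.107 in RT112. The numbers were not taken to pair the samples, although the correlation in J82 lay above the others and does not exclude a pairing there. With the replicate block the counts were 1 higher and 6 lower in 253J, 1 and 6 in TCCSUP, 1 and 5 in J82 and 5 and 3 in RT112. ATF4 in 253J then had an adjusted p of 0.067 and PHGDH in J82 one of 0.0471, and CHAC1 had log2 fold changes of 0.0115 in 253J and -0.0141 in TCCSUP. Over all genes, calls went from 10915 to 8546 in 253J, 11518 to 11965 in TCCSUP, 9044 to 9683 in J82 and 10150 to 10692 in RT112.

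Depth limits CHAC1 in RT112, where the controls had 15 and 13 counts.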

Other observations

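Genes of the pathway lists outside the naming rule, chosen after their values were seen, moved with or against the 10 genes. SLC7A11, the light chain of the cystine importer that also pairs with SLC3A2, was lower in 253J (log2 fold change -2.76, adjusted p = 7.82e-07) and TCCSUP (-1.19, adjusted p = 0.000999), and had values of -0.10 in J82 (adjusted p = 0.798) and 0.24 in RT112 (adjusted p = 0.464). SLC1A5, a glutamine transporter, was lower in 253J (-2.34), TCCSUP (-1.33) and J82 (-0.72), with a value of -0.11 in RT112 (adjusted p = 0.598). VLDLR, a lipoprotein receptor of the ATF4 response, was lower in 253J (-2.87), higher in RT112 (2.02) and TCCSUP (1.10), and at 0.12 in J82 (adjusted p = 0.632).

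ALDH1L2, a mitochondrial folate enzyme, was at least 40.5-fold higher in RT112, from 3 and 0 counts in control to 115 and 94 counts after CM-1758, against a floor of 3 counts per library. It was also higher in 253J (log2 fold change 1.72) and J82 (3.06) and lower in TCCSUP (-2.08). NUPR1, a stress-induced nuclear protein, was at least 13.4-fold lower in J82, from 50 and 25 counts to 0 and 0, and was lower in 253J (-2.13) and TCCSUP (-3.70). The adjusted p-values come from edgeR's quasi-likelihood test.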
